A study of Mus musculus with 11 samples.

Results

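The genes described here are the 5 that make GABA and that load GABA and glycine into vesicles or carry glycine across the plasma membrane: Gad1, Gad2, Slc32a1, Slc6a9 and Slc6a5. They were chosen by name, and each had 1 row among the 47069 Ensembl genes counted in every library. All 5 passed the filter on low counts, as did 18188 genes in total. Retinas came from C57BL/6 mice in 4 groups: wild type at postnatal day 4 (P4, 2 libraries), Brn3b-Kir2.1 at P4 (3 libraries), wild type at P8 (3 libraries) and Brn3b-Kir2.1 at P8 (3 libraries). The Kir2.1 animals carry a transgene under the CAG promoter, behind a floxed stop cassette, for the human potassium channel Kir2.1 joined to the fluorescent protein eYFP. Brn3b-cre, which targets ganglion cells, removes the cassette. The labels disagree on 2 points that touch the groups: the protocol names P11 where the age field gives P8, and Brn3b-cre mice where the genotype field gives wild type. The field values are used. Nothing in the labels says whether replicates came from separate animals, so p-values measure the spread between these libraries.

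GABA is made from glutamate by the glutamate decarboxylases, of which Gad1 encodes the larger and Gad2 the smaller form. Slc32a1 encodes VGAT, the vesicular carrier that loads both GABA and glycine into synaptic vesicles. Slc6a9 and Slc6a5 encode the glycine transporters GlyT1 and GlyT2, which take glycine back up at the plasma membrane. In the retina these genes serve the inhibitory interneurons, chiefly amacrine cells and, for GABA, horizontal cells, and GlyT1 is the usual carrier of glycinergic amacrine cells.

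Upstream sequence is shown for Gad2 and Slc6a9, the 2 genes that passed a test below, and for Gad1, which encodes the other form of the Gad2 enzyme. Each is read 5′ to 3′ on the plus strand from the RefSeq start-site table (GRCm38.p6) and is the longest stretch of the 250 bases before an annotated start that no GENCODE M21 exon covers. Capitals mark the single match to TATAAA on either strand, which reads TTTATA here.
Gad1, chr2:70561879-70562041: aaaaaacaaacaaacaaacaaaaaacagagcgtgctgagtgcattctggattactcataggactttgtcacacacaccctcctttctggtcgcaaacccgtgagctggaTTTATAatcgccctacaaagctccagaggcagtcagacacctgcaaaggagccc
Gad2, chr2:22622077-22622204: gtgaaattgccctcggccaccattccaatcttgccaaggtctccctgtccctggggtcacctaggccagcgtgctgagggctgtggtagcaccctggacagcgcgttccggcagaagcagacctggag
Slc6a9, chr4:117855297-117855491: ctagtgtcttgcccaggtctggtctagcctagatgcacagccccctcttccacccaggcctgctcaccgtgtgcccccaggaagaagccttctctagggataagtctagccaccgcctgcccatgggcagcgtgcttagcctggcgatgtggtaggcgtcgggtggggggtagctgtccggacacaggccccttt
The table matched all 5 genes, with 8 windows in all, since Slc6a9 has 3 listed starts and Slc6a5 has 2. Counts per gene cannot say which of these starts was used. The Slc6a9 stretch shown lies before the most downstream of its 3 starts. Both it and the Gad1 stretch lie within the annotated bounds of their genes. GC content was 46.6% in the Gad1 stretch, 62.5% in the Gad2 stretch and 63.1% in the Slc6a9 stretch, beside a median of 52.4% over the 250-base windows of all genes. Over the full 250 bases, TATAAA was found in the Gad1 window and in 12.4% of all 32851 windows, and GGGCGG was found in the Gad1 window, in that of the most upstream Slc6a9 start and in 32.7% of all windows. CAGCTG (13.0% of all windows) and TAATTA (4.84%) were in none of the 8 windows. Both strands were searched, the motifs do not overlap one another, and a match is only a match of letters.

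Counts assigned to genes ran from 9362215 to 12478838 per library. The libraries hold the whole retina: amacrine markers summed to 1489 to 3991 CPM (counts relative to library size, scaled by TMM), rod markers to 178 to 5789 CPM and ganglion cell markers to 72.8 to 1142 CPM, although the source field names ganglion cells. Expression in such samples cannot tell fewer cells of a type from less RNA per cell. Libraries stood apart in 3 of the 4 groups. Wild-type P4 replicate 2 lay between the ages on the first principal component (-16.4, beside -74.6 to -55.4 for the other P4 libraries and 37.8 to 54.0 for P8), wild-type P8 replicates 1 and 3 lay at opposite ends of the second (74.6 and -39.7), and Kir2.1 P8 replicate 2 had the fewest gene counts and 31325 genes with a count, against 22609 to 24591 in the others. Fold changes are therefore also given without single libraries.

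The age comparison asked how the 5 genes changed from P4 to P8 in each genotype. In Kir2.1 retinas Slc6a9 rose 3.75-fold and Gad2 fell to 0.422 of its P4 level, and both passed the test (adjusted p under 0.05 over 18188 genes). Of all genes, 16.7% passed in this comparison, 7.93% higher and 8.73% lower at P8. In wild type 0 of 5 members passed, where 4.39% of all genes did (0.803% higher and 3.58% lower), and 3 of the 5 had an unadjusted p under 0.05, as did 3563 of the 18188 genes. Directions were shared between the genotypes for Gad2, Slc32a1, Slc6a9 and Slc6a5. The 2 age comparisons use separate libraries but share 1 fit and its estimate of the spread. Where the ages do not overlap below, the share of all genes that separate the ages in this way was not counted.

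**Figure D1:**
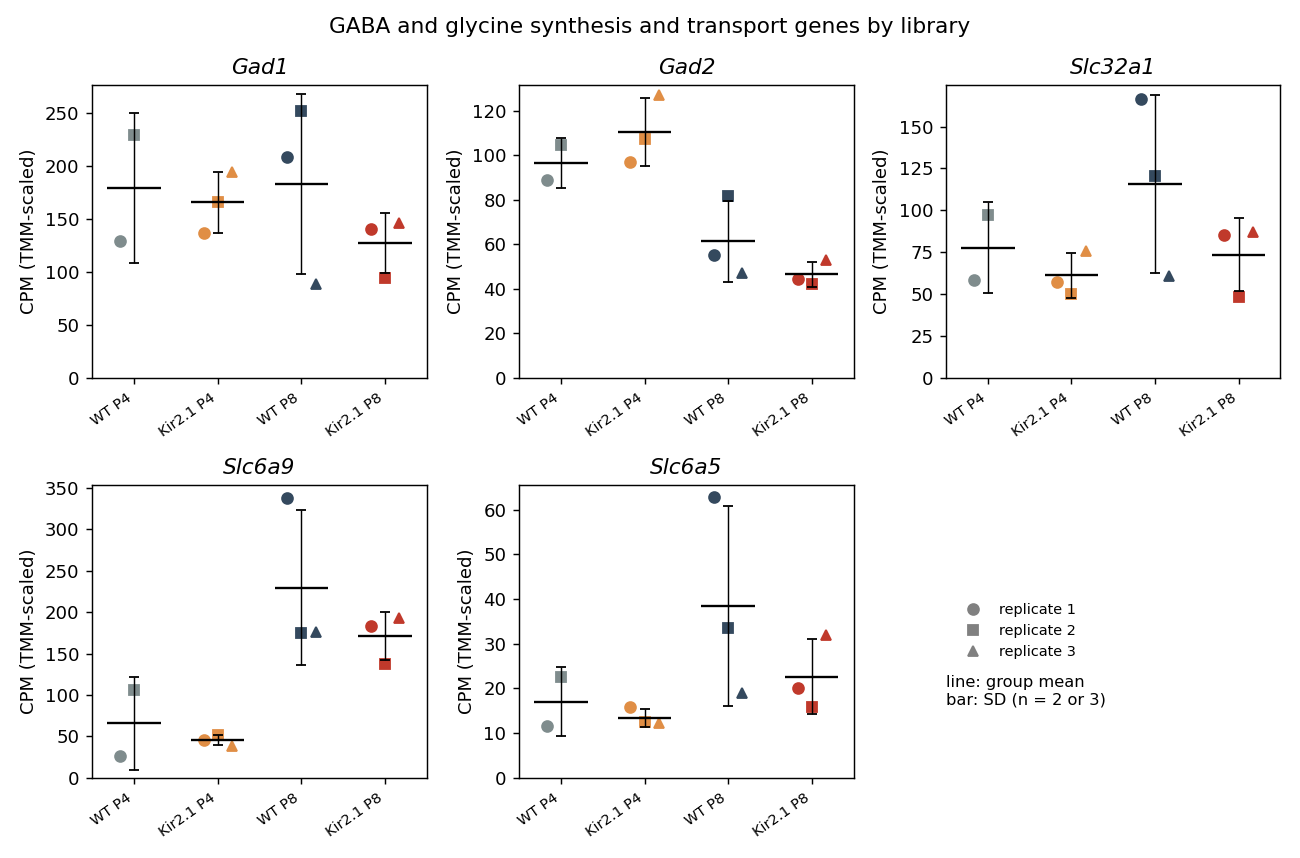
TMM-scaled CPM (vertical axis, from 0, different range in each panel) of the 5 genes in each library, by group. Horizontal lines are group means and bars are SDs (n = 2 or 3). Every P8 library lies below every P4 library for Gad2 and above every P4 library for Slc6a9, while the groups overlap for Gad1 and Slc32a1.

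Gad1 (ENSMUSG00000070880; chromosome 2, 70553072 to 70602014, plus strand, protein-coding, GRCm38) supplies most of the basal GABA of neurons. P4 levels were 129 CPM in replicate 1 and 229 CPM in replicate 2 of wild type, and 136, 166 and 194 CPM for Kir2.1. P8 levels were 208, 251 and 88.1 CPM in wild type, and 141, 94.2 and 146 CPM for Kir2.1. The ages overlapped in both genotypes, and the lowest value of all was that of wild-type P8 replicate 3. The log2 fold change from P4 to P8 was 0.026 ± 0.37 (SE) in wild type (edgeR adjusted p = 0.980) and -0.38 ± 0.33 in Kir2.1 (edgeR adjusted p = 0.4999). In wild type it ran from -0.33 without P4 replicate 1 to 0.50 without P4 replicate 2, and in Kir2.1 from -0.53 without P4 replicate 1 to -0.21 without P8 replicate 2. A processed copy, Gad1-ps, was at no more than 1.10 CPM in any library.

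Gad2 (ENSMUSG00000026787; chromosome 2, 22622205 to 22693874, plus strand, protein-coding) encodes the form linked to synaptic vesicles. Its P4 levels were 88.7 and 104 CPM in wild type, with 96.8, 107 and 127 CPM for Kir2.1. At P8 the wild-type libraries were at 55.2, 81.5 and 47.1 CPM and the Kir2.1 libraries at 44.5, 42.2 and 52.9 CPM. All 6 P8 values were thus below all 5 P4 values, with the narrowest gap in wild type, between 81.5 CPM in P8 replicate 2 and 88.7 CPM in P4 replicate 1. The log2 fold change was -1.25 ± 0.19 (SE) in Kir2.1 (edgeR adjusted p = 0.00128) and stayed between -1.36 and -1.13, with adjusted p from 0.00400 to 0.00874, when any 1 of the 6 Kir2.1 libraries was left out. In wild type it was -0.66 ± 0.21 (edgeR adjusted p = 0.104). It passed there without P8 replicate 2 (-0.92, edgeR adjusted p = 0.0205) and did not without any 1 of the other 4 wild-type libraries. The difference between the age effects, -0.59 ± 0.29, did not pass (edgeR adjusted p = 0.9997).

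Slc32a1 (ENSMUSG00000037771; chromosome 2, 158610767 to 158615748, plus strand, protein-coding) loads both transmitters. P4 libraries held 58.5 and 97.2 CPM in wild type, and 57.6, 50.3 and 76.1 CPM for Kir2.1. P8 libraries held 166, 120.2 and 60.9 CPM in wild type, and 85.3, 48.7 and 87.1 CPM for Kir2.1. Wild-type P8 replicates 1 and 2 were above all the other libraries, and replicate 3 was within the P4 range. The age fold change was 0.57 ± 0.38 (log2, SE) in wild type (edgeR adjusted p = 0.464) and 0.27 ± 0.34 in Kir2.1 (edgeR adjusted p = 0.662). With each library left out in turn, it ran from 0.20 to 0.99 in wild type, lowest without P8 replicate 1 and highest without P4 replicate 2. In Kir2.1 it ran from 0.13 without P8 replicate 3 to 0.49 without P8 replicate 2. An antisense gene, Gm14205, covers 697 bases of its exons and was at 0.279 to 2.01 CPM. The strand setting of the counting is not given in the sources used here, so reads of antisense pairs cannot be told apart.

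Slc6a9 (ENSMUSG00000028542; chromosome 4, 117834506 to 117875198, plus strand, protein-coding) encodes GlyT1. Among P4 libraries, wild type had 26.3 and 106 CPM and Kir2.1 had 46.1, 51.9 and 39.0 CPM. Among P8 libraries, wild type had 338, 175 and 176 CPM and Kir2.1 had 183, 138 and 193 CPM. The 6 P8 values were all above the 5 P4 values, of which wild-type P4 replicate 2 was the highest by far and wild-type P8 replicate 1 was the highest of all. In Kir2.1 the log2 fold change of 1.91 ± 0.41 (SE) passed (edgeR adjusted p = 0.00773), and it stayed between 1.81 and 2.04 with adjusted p from 0.0164 to 0.0396 without any 1 Kir2.1 library. In wild type it was 1.80 ± 0.47 and did not pass (edgeR adjusted p = 0.0522, and 0.272 in a fit of the wild-type libraries alone). Alternative fits, given at the end, called it in some cases and not in others. The wild-type fold change was 3.13 without P4 replicate 2 (edgeR adjusted p = 0.000781), 1.95 without P8 replicate 3 (edgeR adjusted p = 0.0423) and 1.11 without P4 replicate 1 (edgeR adjusted p = 0.349). The age effects differed by 0.11 ± 0.59 (edgeR adjusted p = 0.9997). Ccdc24 lies on the other strand and covers 1429 of the 5141 exon bases of Slc6a9. It was at 4.44 to 19.3 CPM, and was higher at P8 in Kir2.1 by 1.37 on the log2 scale (edgeR adjusted p = 0.00494). Its part in the Slc6a9 counts was not tested.

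Slc6a5 (ENSMUSG00000039728; chromosome 7, 49910146 to 49963856, plus strand, protein-coding) encodes GlyT2, best known from glycinergic neurons of the brainstem and spinal cord. Per kb of exon it had the lowest level of the 5 in each library. Wild type had 11.5 and 22.5 CPM at P4, then 62.9, 33.5 and 19.1 CPM at P8. Kir2.1 had 15.8, 12.4 and 12.2 CPM at P4, then 20.0, 15.9 and 31.99 CPM at P8. The ages did not overlap in Kir2.1, where the gap was 15.8 to 15.9 CPM, and overlapped in wild type. The log2 fold change from P4 to P8 was 1.177 ± 0.46 (SE) in wild type (edgeR adjusted p = 0.178) and 0.75 ± 0.40 in Kir2.1 (edgeR adjusted p = 0.240). The wild-type value ran from 0.61 without P8 replicate 1 to 1.74 without P4 replicate 2, and the Kir2.1 value was 0.42 without P8 replicate 3.

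**Figure D2:**
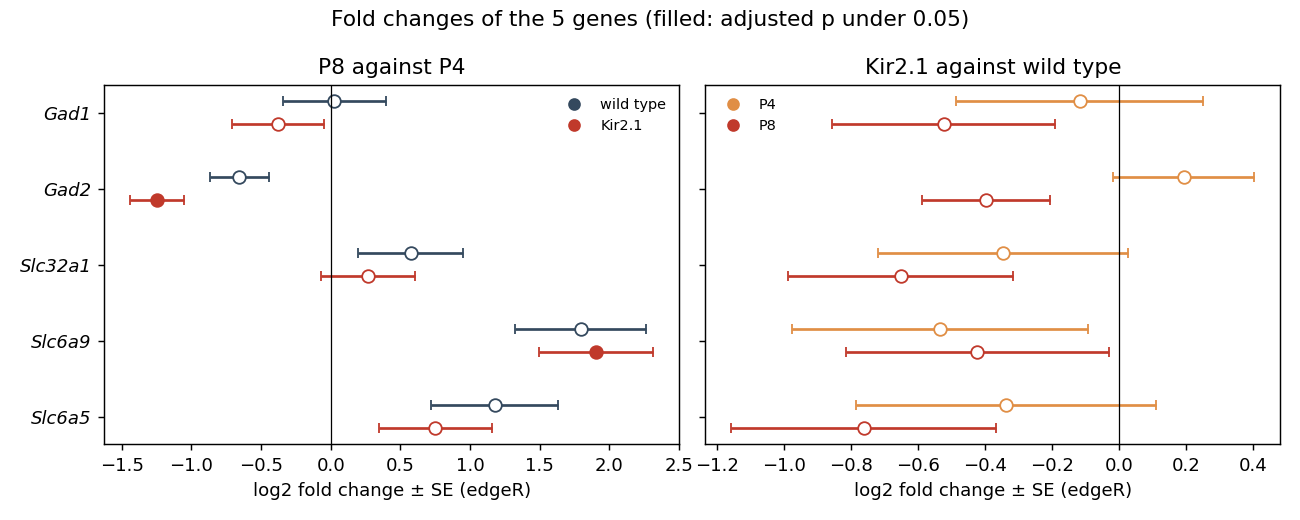
Log2 fold changes with standard errors from edgeR for the 5 genes, P8 against P4 in each genotype (left) and Kir2.1 against wild type at each age (right). Filled points passed an adjusted p of 0.05, which only Gad2 (-1.25) and Slc6a9 (1.91) did, both from P4 to P8 in Kir2.1.

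Levels were compared between the genes per kb of exon, with the exons of all annotated transcripts joined (2.80 kb for Slc32a1 to 7.64 kb for Gad1). In Kir2.1 at P4, Slc32a1 (21.9 ± 4.74 CPM per kb, SD, n = 3), Gad1 (21.6 ± 3.80) and Gad2 (18.8 ± 2.62) had the highest means, in this order. These 3 did not differ beyond their spread. Slc6a9 (8.88 ± 1.25) and Slc6a5 (1.87 ± 0.278) came after. At P8 in Kir2.1, Slc6a9 led at 33.3 ± 5.73 CPM per kb, within the spread of Slc32a1 at 26.3 ± 7.76, and Gad1 (16.6 ± 3.74), Gad2 (7.92 ± 0.962) and Slc6a5 (3.14 ± 1.16) came after (SD, n = 3 each). Wild type had the same order of means at each age. Its levels at P4 were 27.8 ± 9.79 CPM per kb for Slc32a1, 23.5 ± 9.25 for Gad1, 16.4 ± 1.89 for Gad2, 12.9 ± 10.9 for Slc6a9 and 2.36 ± 1.07 for Slc6a5 (SD, n = 2). At P8 they were 44.7 ± 18.2 for Slc6a9, 41.4 ± 18.9 for Slc32a1, 23.9 ± 11.1 for Gad1, 10.4 ± 3.06 for Gad2 and 5.34 ± 3.10 for Slc6a5 (SD, n = 3).

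As a share of the summed CPM per kb of the 5 genes, Slc6a9 held 8.58% to 19.4% in the P4 libraries and 26.5% to 43.8% in the P8 libraries. Gad2 went the other way, from 16.7% to 26.1% at P4 to 5.51% to 10.9% at P8. The Gad1 share was also lower in all P8 libraries, at 14.7% to 25.6% against 27.0% to 31.1% at P4. Slc32a1 held 25.8% to 35.1% at P4 and 26.4% to 34.9% at P8, a range that hardly moved. These shares add to the whole, so a rise in one lowers the others.

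**Figure D3:**
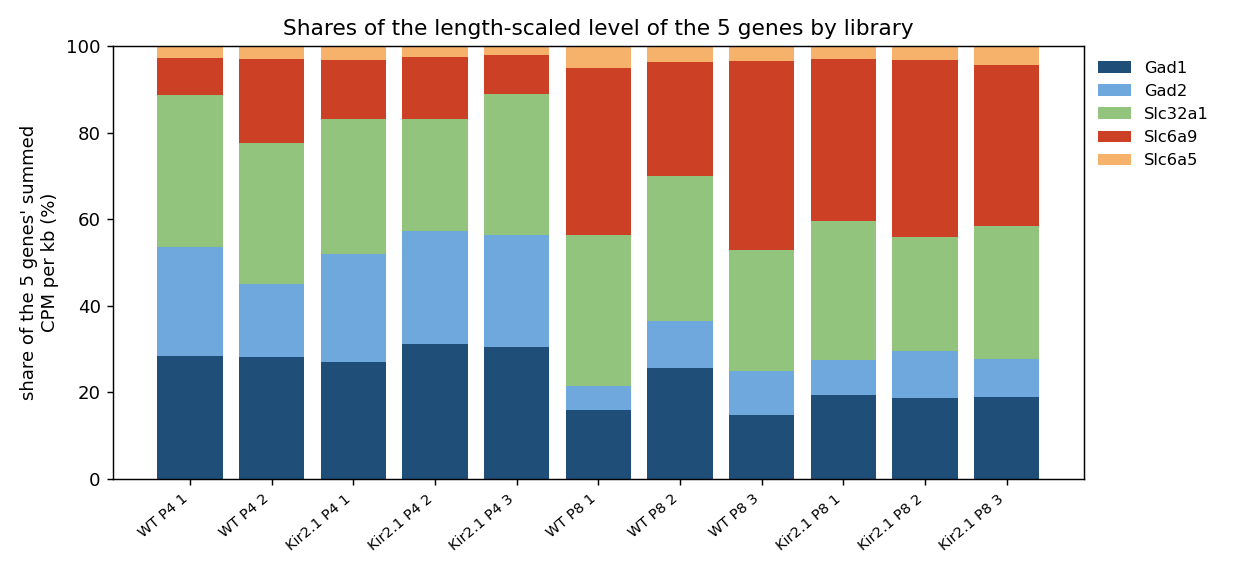
Share of each gene in the summed TMM-scaled CPM per kb of the 5 genes (vertical axis, percent), 1 bar per library. The Slc6a9 part grows from at most 19.4% in P4 libraries to at least 26.5% in P8 libraries, the Gad2 part shrinks to at most 10.9%, and the Gad1 part goes from at least 27.0% to at most 25.6%.

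Ratios of 2 genes within a library do not depend on how libraries are scaled. The ratio of Gad2 to Gad1 counts was 0.686 and 0.456 in wild-type P4 replicates 1 and 2 and 0.711, 0.647 and 0.655 in Kir2.1 P4. At P8 it was 0.265, 0.325 and 0.535 in wild type and 0.316, 0.448 and 0.363 in Kir2.1. The ages overlapped in wild type only, through P4 replicate 2 and P8 replicate 3. With ages permuted within genotype, the mean log2 ratio was lower at P8 by -0.75 (exact two-sided permutation p = 0.015, adjusted p = 0.075 over 10 ratio tests). In wild type alone the difference was -0.64 (exact permutation p = 0.3), and -0.94 to -0.35 with 1 library left out. In Kir2.1 alone it was -0.85 (exact permutation p = 0.1, the smallest possible there). The ratio of Slc6a9 to Slc6a5 was 2.28 and 4.71 in wild type and 2.91, 4.17 and 3.19 in Kir2.1 at P4, against 5.36, 5.22 and 9.22 in wild type and 9.12, 8.62 and 6.03 in Kir2.1 at P8. All P8 libraries were above all P4 libraries. The log2 ratio was higher at P8 by 1.08 (exact two-sided permutation p = 0.005, the smallest this design allows; adjusted p = 0.05, not under the threshold). Between genotypes, the log2 ratio of Gad2 to Gad1 differed by 0.26 at P4 and 0.053 at P8, and that of Slc6a9 to Slc6a5 by 0.047 and 0.29, with exact permutation p from 0.4 to 1.0, where 0.1 is the smallest possible.

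**Figure D4:**
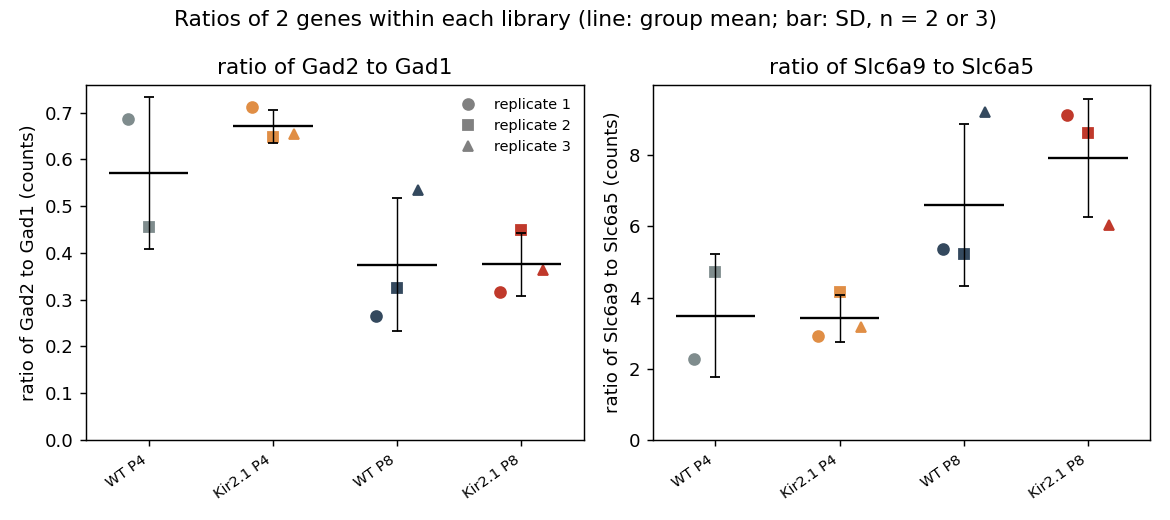
Ratio of Gad2 to Gad1 counts (left) and of Slc6a9 to Slc6a5 counts (right) in each library, on linear axes from 0. Lines are group means and bars SDs (n = 2 or 3). The Gad2 to Gad1 ratio is at 0.456 to 0.711 in P4 libraries and 0.265 to 0.535 in P8 libraries.

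The genotype comparisons asked whether expression of the 5 genes differs when ganglion cells carry Kir2.1. Of the 5 genes 0 passed at P4 and 0 at P8, where 0% of 18188 genes passed at either age in edgeR, and 0 of the 5 had an unadjusted p under 0.05. Over all genes, edgeR gave 1314 at P4 and 1240 at P8 with an unadjusted p under 0.05, and DESeq2 called 19 and 1. DESeq2 on the same libraries also called 0 of the 5 at each age, with an unadjusted p under 0.05 for 0 of 5 at P4 and 2 of 5 at P8, beside 1344 and 1431 of all genes that DESeq2 gave a p for. At P4 the log2 fold changes, Kir2.1 relative to wild type, were -0.12 ± 0.37 (SE) for Gad1, 0.19 ± 0.21 for Gad2, -0.34 ± 0.37 for Slc32a1, -0.53 ± 0.44 for Slc6a9 and -0.34 ± 0.45 for Slc6a5 (edgeR adjusted p from 0.798 to 0.950). The groups overlapped for each gene. Without wild-type P4 replicate 2 the values for Gad1 (0.36), Slc32a1 (0.071), Slc6a9 (0.80) and Slc6a5 (0.23) were positive, and without wild-type P4 replicate 1 that of Slc6a9 was -1.22. Gad2 was positive in each of these fits (0.077 without replicate 1 and 0.32 without replicate 2), and Gad1 was also positive without Kir2.1 P4 replicate 1 (0.014). A lone wild-type library was assumed to vary like the other groups.

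At P8 all 5 genes had lower means in Kir2.1. The log2 fold changes were -0.52 ± 0.33 (SE) for Gad1, -0.40 ± 0.19 for Gad2, -0.65 ± 0.34 for Slc32a1, -0.42 ± 0.39 for Slc6a9 and -0.76 ± 0.39 for Slc6a5 (edgeR adjusted p from 0.700 to 0.789). Groups again overlapped for each gene, since wild-type P8 replicate 3 was lower than at least 1 Kir2.1 library for all 5. Kir2.1 P8 replicate 2, the library with the fewest gene counts, had the lowest value of its group for each of the 5. The fold changes stayed negative without any 1 library. Without wild-type P8 replicate 3 they were -0.85 for Gad1, -0.55 for Gad2, -0.96 for Slc32a1, -0.58 for Slc6a9 and -1.09 for Slc6a5 (edgeR adjusted p from 0.0824 to 0.492). Without wild-type P8 replicate 1 they shrank to -0.42, -0.47, -0.30, -0.036 and -0.21 in the same order, nearer to 0 for all but Gad2. Without wild-type P8 replicate 2, Gad1 was at -0.22 and Gad2 at -0.14, their values nearest to 0. Without Kir2.1 P8 replicate 2, Gad1 was at -0.35 and Slc32a1 at -0.43. The difference between the P8 and P4 genotype effects did not pass for any of the 5 (edgeR adjusted p of 0.9997 each), where 0 of 18188 genes passed, 562 had an unadjusted p under 0.05 and DESeq2 called 0. It ran from -0.59 ± 0.29 (SE) for Gad2, with an unadjusted edgeR p of 0.0608, to 0.11 ± 0.59 for Slc6a9.

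**Figure D5:**
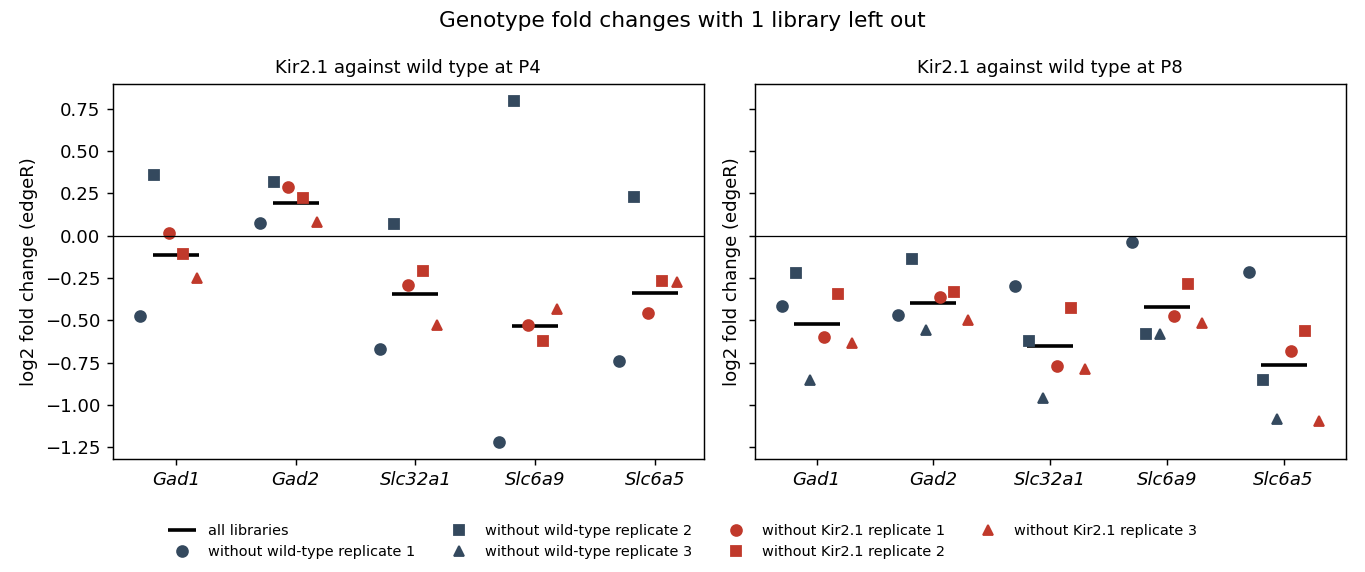
Log2 fold change, Kir2.1 relative to wild type (edgeR), for the 5 genes at P4 (left) and P8 (right), with all libraries (black bars) and with each library of the 2 groups left out (points). At P4 the values without wild-type replicate 2 are positive for all 5 genes, and at P8 all values are negative, the nearest to 0 being -0.036 for Slc6a9 without wild-type replicate 1.

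The authors' deposited tables give other calls for these genes. Their headers do not state a direction, which is taken here as Kir2.1 relative to wild type, and the P8 values have the sign of the edgeR values for each of the 5 genes. Which libraries entered them is not given in the sources used here. The P8 values of the authors' deposited table are closer to the edgeR values without wild-type P8 replicate 3, given above, than to those with all libraries for each of the 5 genes. At P4, the authors' deposited table lists Slc6a9 at -0.86 ± 0.25 (log2, SE; adjusted p = 0.0252), where 2.27% of its 13830 genes with an adjusted p passed (1.09% lower), and none of the other 4 genes passed (Gad2 at 0.41, Slc32a1 at -0.40, Slc6a5 at -0.36 and Gad1 at -0.23). At P8, the authors' deposited table lists Gad1 at -0.87 ± 0.20 (adjusted p = 0.00145), Slc32a1 at -0.98 ± 0.24 (adjusted p = 0.00277) and Slc6a5 at -1.13 ± 0.31 (adjusted p = 0.0104), where 7.27% of 13396 genes passed (4.02% lower). In the same authors' deposited table Gad2 (-0.55, adjusted p = 0.110) and Slc6a9 (-0.57, adjusted p = 0.131) did not pass.

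At P8 the members' means moved beside amacrine markers. Of 15 amacrine markers, 15 had a negative Kir2.1 fold change at P8 and 0 passed. Their median log2 fold change was -0.48, beside 0.0034 over all genes. Some were near 0 at P8, where Ptf1a was at no more than 0.0812 CPM and Neurod6 at 0.509 to 2.19 CPM, so their signs carry little. Sums over the 15 markers were 3991, 2979.5 and 1797 CPM for replicates 1 to 3 of wild type, and 2129, 1489 and 2289 CPM for Kir2.1. Rod marker sums were 626, 2520.1 and 5789 CPM for the same wild-type replicates and between 5205 and 5589 CPM for Kir2.1, so the wild-type library with the lowest amacrine sum had the highest rod sum. Of 4 horizontal cell markers 2 were higher and 2 lower at P8, with a median of 0.059 and 0 called. From P4 to P8 the amacrine list had a median of -0.33 in wild type, with 0 of 15 called higher and 4 lower, where 0.803% of all genes were called higher and 3.58% lower. In Kir2.1 its median was -0.46, with 1 called higher and 7 lower, where 7.93% of all genes were called higher and 8.73% lower.

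Of the other marker lists, those of rods, cones, bipolar, dividing and ganglion cells, microglia and lens had larger median changes with age than the amacrine list in both genotypes. The horizontal cell list did so in wild type only (-0.89, against -0.15 in Kir2.1). The vascular and pigment epithelium lists did so in Kir2.1 only (1.76 and 2.59, against 0.21 and 0.30 in wild type). Mueller glia markers did so in neither (0.17 in wild type and 0.086 in Kir2.1). Only 2 of 4 pigment epithelium and 3 of 5 lens genes were tested, and 0 were called. Pigment epithelium sums were 0.274 to 2.70 CPM, except 14.5 CPM in Kir2.1 P8 replicate 2, and lens sums 0.713 to 17.2 CPM. Of 6 microglia markers 0 were called in either genotype, and of 6 cone markers 0 in wild type and 2 higher in Kir2.1. Rod markers had a median of 3.85 in Kir2.1 (9 of 9 called higher) and 2.24 in wild type (0 of 9 called). Bipolar markers had a median of 4.68 in Kir2.1 (6 of 6 called higher) and 2.35 in wild type (2 of 6 called higher). Markers of dividing cells fell in both genotypes, with 6 of 6 called lower and medians of -4.25 in wild type and -4.17 in Kir2.1. Of 11 ganglion cell markers, 9 were called lower in wild type and 8 in Kir2.1. Over all genes, 0.803% were called higher and 3.58% lower in wild type, and 7.93% higher and 8.73% lower in Kir2.1. Between genotypes at P4, 11 of 11 ganglion cell markers (median -1.31) and 6 of 6 bipolar markers (median -2.39) had negative Kir2.1 fold changes, with 0 called. At P8, 9 of 9 rod markers had positive ones (median 0.89), with 0 called. Wild-type P4 replicate 2 had the highest Slc6a9 and Slc6a5 of the P4 libraries. Its rod markers were at 987 CPM and its bipolar markers at 307 CPM, against 178 to 593 and 109 to 117 CPM in the other P4 libraries. Its markers of dividing cells were at 876 CPM, against 1969 to 2523 CPM in the others. The part of cell make-up in the members' values was not tested.

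Other genes of GABA and glycine handling were taken from a list of 22, of which 21 passed the filter and Slc7a10, at no more than 1.14 CPM, did not. Between genotypes 0 of 21 were called at each age (background 0%), with medians of -0.040 at P4 and 0.039 at P8, beside 0.011 and 0.0034 over all genes. With age in wild type, 2 fell and 0 rose (median -0.18, all genes 0.026), where 4.39% of all genes passed. With age in Kir2.1, 2 fell and 2 rose of 21 (median -0.036, all genes 0.0046), a share near the 16.7% of all genes that passed. Slc6a11 (GAT-3), a plasma membrane GABA transporter, lay between 84.4 and 147 CPM in all libraries, and did not pass in any of the 5 comparisons.

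Slc6a12, the betaine and GABA carrier, was at 1.02 and 8.78 CPM in wild type and 0.929 to 1.61 CPM for Kir2.1 at P4, then at 30.9, 12.8 and 15.8 CPM in wild type and 14.8, 7.29 and 15.3 CPM in Kir2.1 at P8. It rose in Kir2.1 by 3.36 ± 0.66 on the log2 scale (SE; edgeR adjusted p = 0.00487) and was at 2.01 ± 0.67 in wild type (edgeR adjusted p = 0.119). Slc6a13 was at 0.650 to 2.71 CPM and did not pass. Of the 5 genes of serine and glycine synthesis, Psat1 and Shmt1 fell in both genotypes. Shmt1, which converts serine to glycine in the cytosol, fell by 2.45 ± 0.50 in wild type (edgeR adjusted p = 0.0141) and by 2.23 ± 0.45 in Kir2.1 (edgeR adjusted p = 0.00602), and Psat1, of serine synthesis, fell by 0.90 ± 0.22 (edgeR adjusted p = 0.0413) and by 1.07 ± 0.21 (edgeR adjusted p = 0.00437). None of the 2 genes of GABA breakdown (Abat, Aldh5a1) or the 4 of the glycine cleavage system (Gldc, Amt, Gcsh, Dld) passed.

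The genes whose log2 CPM followed each member most closely over the 11 libraries are given as a description, since these libraries share age, depth and cell make-up. They were sought among 12229 genes with a mean of at least 5 CPM. For Slc6a9 they were BC034090 (Pearson r = 0.993), Prox1 (0.992), a homeobox transcription factor of retinal interneurons, and Actc1 (0.987). For Gad2 they were Ptprk (0.970), Slc22a15 (0.964) and Tdrd9 (0.955). Gad1 was followed most closely by Tmem178b (0.956) and Pcdhac2 (0.951). Slc32a1 was followed by Pnmal2 (0.988), Pja2 (0.983) and Kcnc1 (0.977), and Slc6a5 by A930017K11Rik (0.984), Rgmb (0.973) and Galnt18 (0.973). The mean z-score of the 5 members was nearest to Shank2 (0.963), Prkcb (0.962) and Gria2 (0.961).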

How the data were processed

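RNA-seq was done on dissociated retinas, 11 libraries in 4 groups taken from the titles. The authors deposited whole-number counts per Ensembl gene for each library. Per the submitters' processing notes, cutadapt 1.18, STAR 2.5.0c, SAMtools 1.9, bedtools 2.26.0, HTSeq 0.6.1, DESeq2 and the mm10 build were used, with no role given. The annotation and strand setting are not given in the sources used here. Records that name no gene (74.6% to 79.8% of each table) were left out. The authors' deposited comparison tables hold, per the file headers, a mean normalized count (a signal), a log2 fold change and its standard error (log2), a statistic (a score), a raw p-value and its adjusted form.

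Counts were fitted with edgeR 4.0.16 in R 4.3.3 (filterByExpr, TMM factors 0.964 to 1.05, quasi-likelihood test, 4 group means over 11 libraries, Benjamini-Hochberg adjustment over 18188 genes, threshold 0.05). Standard errors are the fold change over the square root of F. Ratios had 0.5 added to each count. Symbols matched 46488 of 47069 IDs, and coordinates come from GENCODE M21 (GRCm38). Alternatives were DESeq2 1.42.0 (size factors, test), limma 3.58.1 voom with quality weights, no filter, fewer libraries, a replicate block and each library left out. The code was tested on simulated counts. The members and lists were chosen with earlier results of these data known. The rule named, besides the members, 4 GABA transporters, list genes that passed and, for each member, the 3 genes most like it; some of these genes are not reported here. Replicates differed by more than sampling noise (chi-square per degree of freedom 8.44 to 56.6). Relative counting error falls as the count of a gene grows. The lowest member count was 135, for Slc6a5 in wild-type P4 replicate 1. Genes given above at lower CPM have fewer counts and more counting error.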

Additional observations from a re-analysis of the deposited data

How the results depend on the processing

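The 2 age calls in Kir2.1, Gad2 lower and Slc6a9 higher at P8, held under every alternative run, and 0 members were called between genotypes at P4 or for the difference of effects in any fit. Without the filter on low counts, 3 members were called between genotypes at P8 (Gad1 at -0.52, Slc32a1 at -0.65 and Slc6a5 at -0.76, all lower) and 4 with age in wild type, and 339, 447, 136 and 2058 genes were called at P4, at P8, for the difference of effects and with age in wild type, where the filtered fit gave 0, 0, 0 and 798. The cause was not tested. The DESeq2 test called 19 genes at P4, 1 at P8 and 1421 with age in wild type, of which 1 was a member (Slc6a9, 1.81), and voom with quality weights also called 1 member there (Slc6a9, 1.89). The fit of wild-type libraries alone called 113 genes with age. In Kir2.1, Slc6a5 passed without the filter (0.75) and in the fit of the Kir2.1 libraries alone (0.75).

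With each library left out in turn, genes called ranged from 0 to 6 at P4, 0 to 219 at P8 (219 without wild-type P8 replicate 3), 0 to 1 for the difference of effects, 163 to 1338 with age in wild type (163 and 1338 without wild-type P4 replicates 1 and 2) and 1764 to 2169 in Kir2.1. Members called ranged from 0 to 1 with age in wild type. Fold changes between genotypes at P4 ranged from -0.48 to 0.36 for Gad1, -0.67 to 0.071 for Slc32a1, -1.22 to 0.80 for Slc6a9 and -0.74 to 0.23 for Slc6a5. With age in wild type, Gad1 ranged from -0.33 to 0.50. The difference of effects ranged from -0.72 to 0.039 for Slc32a1, -0.99 to 0.11 for Slc6a5 and -1.22 to 0.80 for Slc6a9. For Gad1 it ranged from -0.88 to -0.048, and for Gad2 from -0.75 to -0.33. The age difference in the log2 ratio of Gad2 to Gad1 ranged from -0.89 to -0.60 and that of Slc6a9 to Slc6a5 from 0.82 to 1.34. Between genotypes, the log2 ratio of Gad2 to Gad1 ranged from -0.034 to 0.56 at P4 and -0.16 to 0.34 at P8. That of Slc6a9 to Slc6a5 ranged from -0.48 to 0.57 at P4 and 0.15 to 0.56 at P8.

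Deviations of same-numbered libraries from their group means correlated at -0.076 to 0.14, over 0.1 in 3 of 15 pairs. With 2 or 3 libraries in a group, these values cannot decide whether the numbers pair the libraries. With a replicate block the fit called 558 genes with age in wild type and 2929 in Kir2.1, 2 members in Kir2.1 and 0 elsewhere. Differences within replicate number were -0.88 for the log2 ratio of Gad2 to Gad1 and 1.0002 for that of Slc6a9 to Slc6a5.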
